A study of Mus musculus with 6 samples.

Results

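Toll-like receptors are the innate sensors with which monocytes detect microbial molecules, and Cd14 is the coreceptor that hands lipopolysaccharide and other ligands to them. The genes described here were fixed by name and comprised 10 of the 55421 genes counted, namely Tlr1, Tlr2, Tlr4, Tlr5, Tlr6, Tlr7, Tlr8, Tlr9, Tlr13 and Cd14. Their RNA was measured by bulk sequencing of monocytes taken from the spleen of 6 mice, 3 of them IL-4Rα+/+ and 3 IL-4Rα-/-, with 1 library per mouse. IL-4Rα is the chain shared by the receptors for IL-4 and IL-13. The IL-4Rα-/- mice lacked it in the whole body and not in monocytes alone, and the IL-4Rα+/+ mice were their littermates on the C57BL/6 background. The labels name no treatment for either genotype and give neither age nor sex, and the study's methods describe the animals as adult by their age in weeks. Monocytes were enriched with a kit that removes other cells and leaves monocytes unlabelled, so other spleen cells could remain. The question put to these genes was whether monocytes without IL-4Rα carried more or less RNA of the microbial sensors.

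These receptors are usually read in groups by location. Tlr1, Tlr2, Tlr4, Tlr5 and Tlr6 act at the cell surface and recognise bacterial lipoproteins, lipopolysaccharide and flagellin. Tlr7, Tlr8, Tlr9 and Tlr13 act in endosomes, where they meet RNA or DNA of ingested microbes, and they depend on the chaperone Unc93b1 to get there. Nearly all of them signal through the adaptor Myd88 to kinases of the Irak family and on to NF-κB, and monocytes are among the cells in which they are best known.

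To show the regulatory DNA in front of these genes, 250 bases before the transcription start were taken from RefSeq for build GRCm38.p6. Windows of 7 of the 10 genes were used, giving 9 windows. No window of Tlr4, Tlr7 or Cd14 was searched, so the motif counts below leave these genes out. Each window was searched on both strands for GAGGAA, the core of sites bound by the myeloid factor PU.1, and for TTC and GAA with 4 bases between them, the kind of letters bound by STAT6, the factor that the IL-4 receptor activates. The windows of Tlr5, Tlr8 and Tlr9 are shown because they hold none, both and the first of these motifs, and because Tlr5 varied most among the members. They lie at chr1:182954538-182954787 on the plus strand, chrX:167264330-167264579 on the minus strand and chr9:106222348-106222597 on the plus strand. They are printed 5′ to 3′ on the strand of the gene, and capitals mark a match to either motif.
Tlr5: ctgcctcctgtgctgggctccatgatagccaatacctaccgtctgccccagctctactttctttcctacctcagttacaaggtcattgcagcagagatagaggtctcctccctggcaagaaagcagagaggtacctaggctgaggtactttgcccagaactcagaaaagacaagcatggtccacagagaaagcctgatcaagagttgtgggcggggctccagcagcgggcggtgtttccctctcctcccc
Tlr8: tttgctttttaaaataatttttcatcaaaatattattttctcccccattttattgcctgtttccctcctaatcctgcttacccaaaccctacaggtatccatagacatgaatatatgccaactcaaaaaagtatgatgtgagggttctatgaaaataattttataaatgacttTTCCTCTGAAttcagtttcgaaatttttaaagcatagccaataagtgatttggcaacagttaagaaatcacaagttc
Tlr9: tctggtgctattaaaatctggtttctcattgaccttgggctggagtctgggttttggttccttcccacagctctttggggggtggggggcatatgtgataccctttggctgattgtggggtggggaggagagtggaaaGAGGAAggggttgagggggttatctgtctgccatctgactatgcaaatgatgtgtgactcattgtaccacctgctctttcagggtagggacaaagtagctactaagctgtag
In Tlr8 the PU.1 core, read on the opposite strand, and the STAT6-type letters overlapped in the same run of bases. The PU.1 core stood in 4 of the 9 windows, those of Tlr8, Tlr9, Tlr13 and 1 of the windows of Tlr1. It stood in 23.3% of the 32851 windows of all genes. The STAT6-type letters stood in the window of Tlr8 alone and in 5.85% of all windows. TTGCNNAA, a C/EBP-type motif, stood in 1 window of Tlr6 and in that of Tlr8, and in 9.56% of all windows. TGANTCA, the AP-1 motif, stood in the window of Tlr9 and in 6.75% of all windows. A match describes the letters only and shows no binding.

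The libraries were alike in depth, with 26807281 to 29033297 reads counted on genes. Levels are given as CPM, the reads of a gene per 1000000 reads of its library after scaling by edgeR's TMM factors, and the 6 values of a gene are given in the order replicates 1, 2 and 3 of IL-4Rα+/+ and then of IL-4Rα-/-. Il4ra, the targeted gene, had 137, 128 and 177 CPM in IL-4Rα+/+ and 27.9, 79.4 and 31.8 CPM in IL-4Rα-/- libraries, so the genotypes did not overlap. Its log2 fold change was -1.67, with an adjusted p of 0.618 by edgeR and 0.011 by DESeq2. The general monocyte markers were abundant in every library, with a summed level of 15878 to 23584 CPM in IL-4Rα+/+ and 19255 to 24928 CPM in IL-4Rα-/-. IL-4Rα+/+ replicate 3 and IL-4Rα-/- replicate 2 stood apart from the other 4 libraries in markers of the Ly6C-high and Ly6C-low monocyte subsets, as set out below. Xist was at 553 and 457 CPM in IL-4Rα+/+ replicate 1 and IL-4Rα-/- replicate 3 and at 3.73 CPM or below in the others, and 4 Y-linked genes had at most 4 counts in those 2 libraries, so each genotype held 1 female-typed and 2 male-typed libraries.

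All 10 genes were detected in every library, from 148 reads for Tlr5 to 13067 reads for Tlr13. To compare genes with each other, CPM was divided by the length of each gene's exons in kilobases. Tlr13 and Tlr7, both endosomal RNA sensors, led. Tlr13, the sensor of bacterial ribosomal RNA, averaged 94.4 CPM per kb over the 6 libraries, and Tlr7, the sensor of single-stranded RNA, averaged 87.9 CPM per kb. The ranges of these 2 receptors overlapped. Every library held more Tlr7 per length than Tlr2, the lipoprotein receptor, which averaged 39.7 CPM per kb.

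Cd14 averaged 37.2, Tlr8 35.8 and Tlr9 29.8 CPM per kb, and Tlr2, Cd14, Tlr8 and Tlr9 overlapped from neighbour to neighbour. Below them the order was clear of overlap at Tlr1, with 15.4 CPM per kb, and again at Tlr6, with 9.95 CPM per kb; both pair with Tlr2 to bind lipoproteins. Tlr4, the lipopolysaccharide receptor, averaged 7.65 CPM per kb and overlapped Tlr6, and these 2 traded places when the longest transcript was used as the length. Tlr5, the flagellin receptor, was the lowest member with 1.91 CPM per kb. The receptors outside the set were near it, at 3.44 CPM per kb for Tlr11, 2.04 for Tlr12 and 1.27 for Tlr3.

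**Figure D1:**
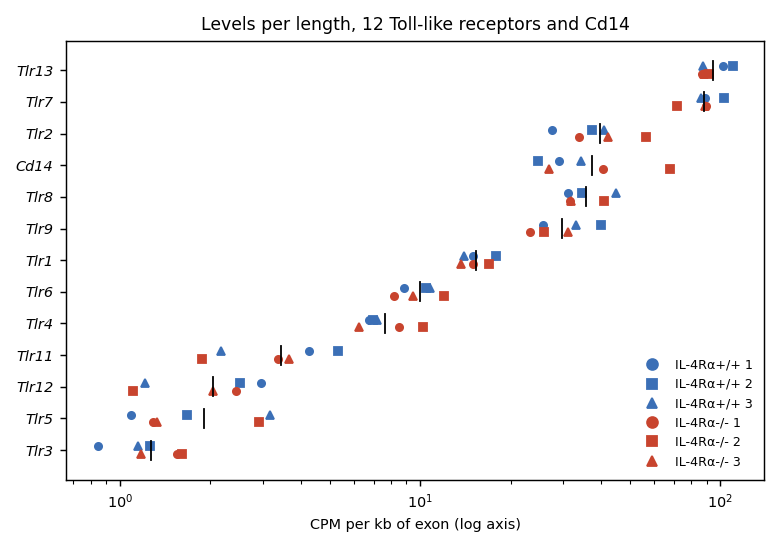
Level of each receptor gene in each library, as CPM per kb of exon on a log axis, with the mean of the 6 libraries as a black bar. Tlr13 and Tlr7 sit at the top with means of 94.4 and 87.9 CPM per kb, clear of every value of the other 11 genes.

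Of the summed level per length of all 12 receptors, Tlr7 and Tlr13 made up 55.4% ± 4.19 (SD, n = 6). Their share was 60.7%, 57.4% and 52.3% in IL-4Rα+/+ and 57.7%, 49.0% and 55.4% in IL-4Rα-/- libraries, and the genotypes overlapped. The 5 surface receptors made up 18.8%, 20.03% and 22.9% in IL-4Rα+/+ and 21.9%, 29.6% and 22.8% in IL-4Rα-/- libraries. Here too the genotypes overlapped, and IL-4Rα-/- replicate 2 was the highest of all. The 4 endosomal members made up 78.6%, 77.5% and 75.73% in IL-4Rα+/+ and 75.69%, 69.0% and 75.02% in IL-4Rα-/- libraries. For this share the genotypes did not overlap, by a margin of 0.0388 percentage points, or 0.145 with the longest transcript as the length, against SDs of 1.47 and 3.66 percentage points (n = 3 each). The sum over 12 receptors was 339 ± 28.9 CPM per kb in IL-4Rα+/+ and 319 ± 14.1 CPM per kb in IL-4Rα-/- (SD, n = 3 each), a difference smaller than the spread in IL-4Rα+/+.

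No member differed between the genotypes at the threshold used. By the quasi-likelihood test of edgeR, with p-values adjusted by the Benjamini-Hochberg method over 13849 genes, 0 of the 10 members had an adjusted p under 0.15, and their adjusted p ran from 0.638 to 0.972. This is also the background, since 0% of all genes were called. At an unadjusted p under 0.05, 0 of 10 members passed against 8.09% of all genes (3.72% higher and 4.37% lower in IL-4Rα-/-), and 0 of 10 against 6.21% once the trend of counts with gene length was removed. DESeq2, a second count test, called 0 of 10 members and 0.311% of the genes it tested. The genotypes did not overlap for 0 of 10 members and for 15.5% of all genes. The mean was higher in IL-4Rα-/- for 3 members and lower for 7, with a median log2 fold change of -0.06. Without a filter on low counts 1 of 10, Cd14, had an unadjusted p under 0.05, against 5.41% of all genes. Leaving out 1 library gave at most 2 of 10. These were Tlr9 without IL-4Rα+/+ replicate 1 (log2 fold change -0.45; 6.48% of all genes passed), Tlr13 without IL-4Rα+/+ replicate 3 (-0.25; 12.1%), and Cd14 (0.88) and Tlr4 (0.43) without IL-4Rα-/- replicate 3 (6.98%). Because the samples are bulk RNA, fewer cells of a type and less RNA per cell cannot be told apart in any of these values.

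**Figure D2:**
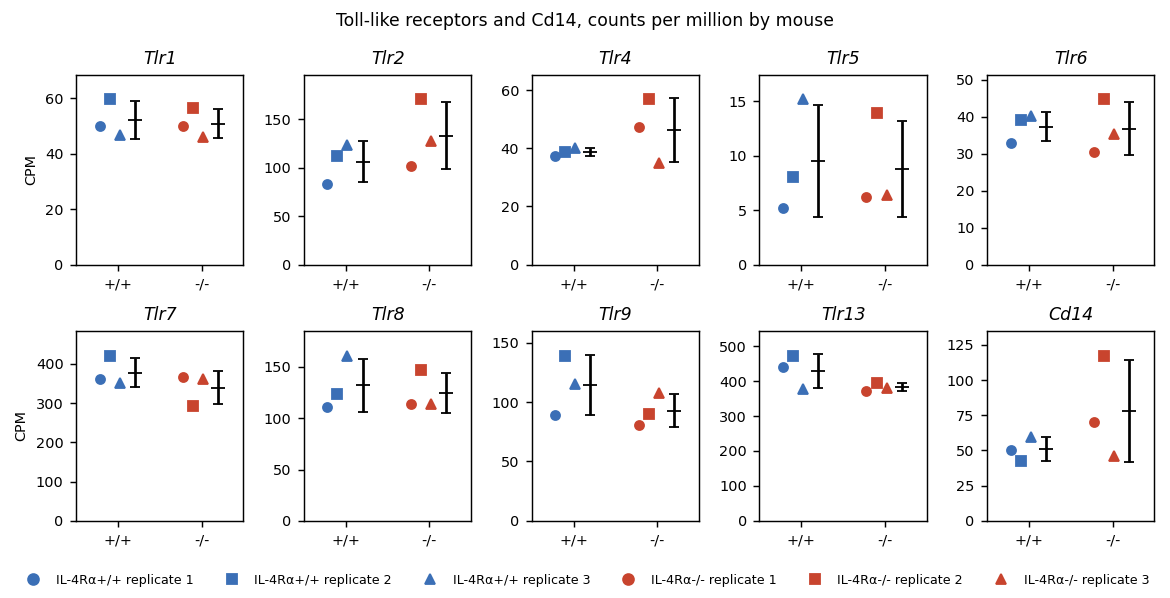
CPM of the 10 members in each mouse, 1 panel per gene on a linear axis from 0, with the mean and SD of each genotype (n = 3) in black beside the points. In every panel the points of the genotypes overlap, and Cd14 and Tlr4 are highest in IL-4Rα-/- replicate 2, at 117 and 56.8 CPM.

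Cd14, Tlr2 and Tlr4 were the 3 members with a higher mean in IL-4Rα-/-. Cd14 had 50.3, 42.6 and 59.7 CPM in IL-4Rα+/+ and 70.4, 117 and 46.4 CPM in IL-4Rα-/- libraries. Replicates 1 and 2 of IL-4Rα-/- were above all of IL-4Rα+/+, whereas replicate 3 lay inside the IL-4Rα+/+ range. The log2 fold change was 0.62 (SE 0.33, 95% CI -0.16 to 1.40), with an adjusted p of 0.638. It rested largely on 1 library, since without IL-4Rα-/- replicate 2 it was 0.20 and without IL-4Rα-/- replicate 3 it was 0.88. Tlr4 (chr4:66827584-66930284, plus strand) had 37.5, 38.7 and 39.9 CPM in IL-4Rα+/+ and 47.2, 56.8 and 34.8 CPM in IL-4Rα-/-. The IL-4Rα+/+ values were close together, and the IL-4Rα-/- values fell on either side of them. Its log2 fold change was 0.26 (SE 0.17, 95% CI -0.15 to 0.67; adjusted p = 0.670). Ly96, which encodes the MD-2 protein that holds lipopolysaccharide on Tlr4, had 14.7, 12.4 and 15.1 CPM against 17.5, 18.2 and 13.7 CPM. For Ly96, as for Cd14, IL-4Rα-/- replicate 3 lay inside the IL-4Rα+/+ range, whereas for Tlr4 it lay below that range.

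Tlr2 and its partners Tlr1 and Tlr6 did not share a direction. Tlr2 (chr3:83836272-83841767, minus strand) had 82.7, 112 and 124 CPM in IL-4Rα+/+ and 102, 171 and 127 CPM in IL-4Rα-/-. Only IL-4Rα-/- replicates 2 and 3 exceeded every IL-4Rα+/+ library, and the log2 fold change was 0.33 (SE 0.22, 95% CI -0.21 to 0.86; adjusted p = 0.678). Tlr1 (chr5:64924679-64933563, minus strand) had 50.2, 59.7 and 46.7 CPM against 50.2, 56.5 and 45.9 CPM. Its genotypes covered almost the same range, with a log2 fold change of -0.04 (95% CI -0.33 to 0.25). Tlr6 (chr5:64952031-64960097, minus strand) had 32.9, 39.1 and 40.2 CPM against 30.5, 44.8 and 35.2 CPM. The highest and the lowest library were both IL-4Rα-/-, and the log2 fold change was -0.02 (95% CI -0.39 to 0.35).

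Tlr1 and Tlr6 are neighbours, 18467 bases apart, and share sequence. Of the 75-base windows in Tlr1 transcripts, 10.6% were identical to a window of another gene, nearly all of them Tlr6, and of those in Tlr6 9.25% were identical to Tlr1. The longest identical stretch was 229 bases. Reads of 75 bases from it map to both genes and were not in the unique counts, so the levels of these 2 genes are uncertain to that extent. The other 8 members shared no such window with any gene.

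Tlr5 (chr1:182954788-182976044, plus strand) varied most among the members, with a coefficient of variation of 47.0% over the 6 libraries. It had 5.20, 8.03 and 15.2 CPM in IL-4Rα+/+ and 6.18, 13.9 and 6.36 CPM in IL-4Rα-/-. One library of each genotype was high and the others were low. The log2 fold change was -0.10 (SE 0.48, 95% CI -1.25 to 1.04; adjusted p = 0.951), so a difference of up to about 1 log2 unit either way lay within the interval.

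The 4 endosomal members each had a lower mean in IL-4Rα-/-. Tlr13 (chrX:106143204-106160493, plus strand) had 439, 473 and 377 CPM in IL-4Rα+/+ and 373, 395 and 380 CPM in IL-4Rα-/-. The IL-4Rα-/- libraries were close together, and IL-4Rα+/+ replicate 3 lay among them. The log2 fold change was -0.17 (SE 0.10, 95% CI -0.40 to 0.07; adjusted p = 0.656). Tlr7 (chrX:167304929-167330558, minus strand) had 362, 421 and 351 CPM against 366, 292 and 361 CPM. IL-4Rα-/- replicate 2 was the lowest and the other IL-4Rα-/- libraries lay inside the IL-4Rα+/+ range, with a log2 fold change of -0.15 (SE 0.12, 95% CI -0.44 to 0.13; adjusted p = 0.716).

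Tlr9 (chr9:106222598-106226883, plus strand), the sensor of unmethylated CpG DNA, had 89.1, 139 and 115 CPM in IL-4Rα+/+ and 80.5, 89.9 and 108 CPM in IL-4Rα-/-. IL-4Rα+/+ replicate 1 lay among the IL-4Rα-/- values. The log2 fold change of -0.30 (SE 0.18, 95% CI -0.74 to 0.14; adjusted p = 0.659) was the lowest of the 10 members. Tlr8 (chrX:167242696-167264329, minus strand), an endosomal RNA sensor next to Tlr7 and 40599 bases from it, had 111, 124 and 161 CPM against 113, 147 and 114 CPM. Again 1 library of each genotype was the highest, and the log2 fold change was -0.08 (95% CI -0.49 to 0.32).

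**Figure D3:**
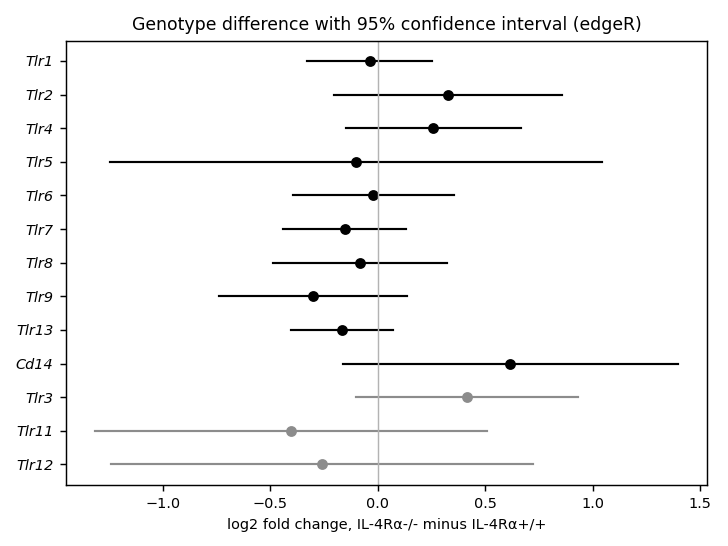
Log2 fold change of IL-4Rα-/- minus IL-4Rα+/+ for the 10 members in black and for Tlr3, Tlr11 and Tlr12 in grey, with 95% confidence intervals from edgeR (n = 3 per genotype). Each interval crosses 0, from Tlr9 at -0.30 to Cd14 at 0.62 among the members.

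Tlr3, Tlr11 and Tlr12 are endosomal receptors that were not members. Tlr3, the sensor of double-stranded RNA, had 4.39, 6.55 and 6.00 CPM in IL-4Rα+/+ and 8.07, 8.41 and 6.12 CPM in IL-4Rα-/- (log2 fold change 0.42, SE 0.22). Tlr11 had 13.9, 17.4 and 7.10 CPM against 11.0, 6.13 and 11.97 CPM, and Tlr12 had 9.38, 7.995 and 3.85 CPM against 7.75, 3.50 and 6.49 CPM. Tlr11 and Tlr12 bind profilin of parasites. None of these 3 had an adjusted p under 0.15.

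Tlr7, Tlr8 and Tlr13 lie on the X chromosome, so their values were set beside the sex markers. Tlr7 had 361 to 362 CPM in the 2 libraries high in Xist and 292 to 421 CPM in the other 4. Tlr13 had 380 to 439 CPM against 373 to 473 CPM. Both receptors were thus inside the range of the male-typed libraries. Tlr8 had 111 to 114 CPM in the libraries high in Xist and 113 to 161 CPM in the others, and these ranges overlapped. Tlr4, which is not X-linked, had 34.8 to 37.5 CPM against 38.7 to 56.8 CPM. The share of all genes split in this way is not given here. With Xist as a covariate, 0 of 10 members had an unadjusted p under 0.05 by edgeR, against 910 of 13849 genes in all.

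The receptors were next read beside markers of the monocyte subsets. Ly6C-high monocytes are the classical inflammatory cells and Ly6C-low monocytes the patrolling ones. An index was formed for each library as the mean log2 CPM of 9 Ly6C-high genes minus that of 11 Ly6C-low genes. It was -1.99, -0.50 and 1.62 in IL-4Rα+/+ and -0.48, 2.39 and -0.13 in IL-4Rα-/- libraries. Vcan, a Ly6C-high gene, was at 14.5, 83.0 and 787 CPM in IL-4Rα+/+ and 136, 1267 and 98.0 CPM in IL-4Rα-/-. Ace, a Ly6C-low gene, was at 2774, 2123 and 1088 CPM against 1745, 710 and 1604 CPM. IL-4Rα+/+ replicate 3 and IL-4Rα-/- replicate 2 were therefore the libraries richest in Ly6C-high genes, and each genotype held 1 of them.

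In those 2 libraries Tlr5, Tlr6 and Tlr8 were above all 4 others, and Tlr7 was below all 4 others. The remaining 6 members overlapped. Among all genes tested, 17.4% were above and 16.3% below in the same way, so 33.6% did either, and the 4 of 10 members were close to that share. For Tlr5 the values were 15.2 and 13.9 CPM against 5.20 to 8.03 CPM in the other libraries. Tlr8 stood at 161 and 147 CPM against 111 to 124 CPM. Tlr7 stood at 351 and 292 CPM against 361 to 421 CPM. Outside the members, Tlr11 and Tlr12 were below all 4 others in both libraries, as the plot of libraries by Ly6C index shows.

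**Figure D4:**
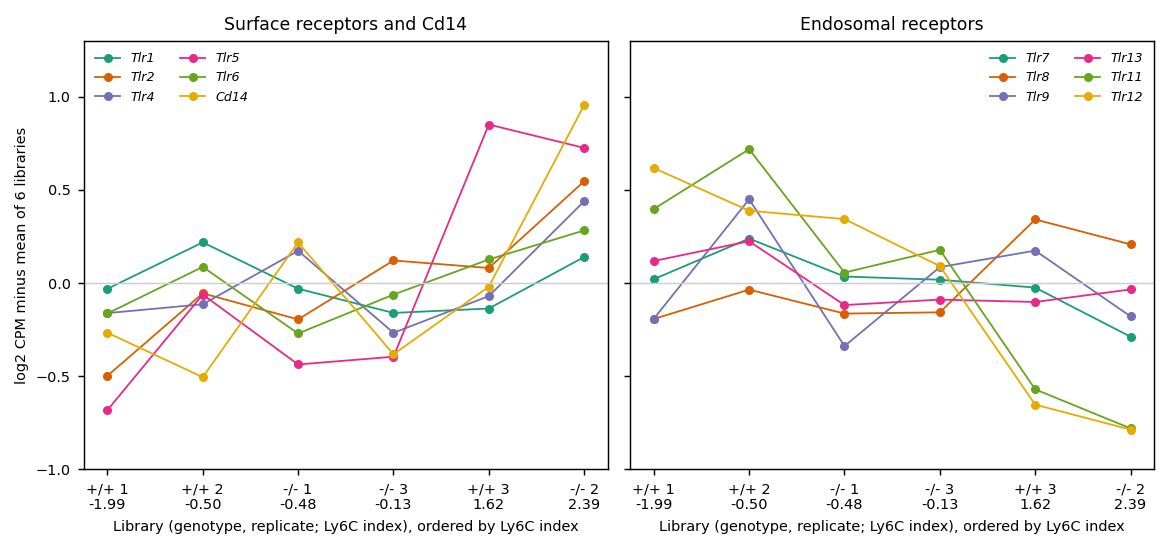
Log2 CPM of each gene minus its mean over the 6 libraries, with the libraries ordered from the lowest Ly6C index (IL-4Rα+/+ replicate 1, -1.99) to the highest (IL-4Rα-/- replicate 2, 2.39), surface receptors and Cd14 at left and endosomal receptors at right. Tlr5 and Tlr8 are each at their own highest, and Tlr11 and Tlr12 at their own lowest, in the 2 libraries at the right. Cd14 is the highest line in the last library of the left panel.

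With the index as a covariate, a fit chosen after seeing the data, 2 of 10 members had an unadjusted p under 0.05 against 11.8% of all genes. These were Tlr5, with a log2 fold change of -0.45 (adjusted p = 0.347 by edgeR), and Tlr8, with -0.20 (adjusted p = 0.355 by edgeR). Without both libraries, 1 of 10 members did, against 10.7% of all genes; this was Tlr13 with a log2 fold change of -0.27 (adjusted p = 0.422 by edgeR). No member had an adjusted p under 0.15 in either fit. Cd14 was at 0.38 with the covariate and 0.33 without both libraries, against 0.62 in all.

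For some other spleen cells the summed markers did not overlap between the genotypes, though 0% of all genes had an adjusted p under 0.15 by edgeR. Red pulp macrophage markers summed to 3337 to 3882 CPM in IL-4Rα+/+ and 4420 to 7065 CPM in IL-4Rα-/-, with 7 of 12 markers at an unadjusted p under 0.05 and higher in IL-4Rα-/-, against 3.72% of all genes. Erythroid markers summed to 87.6 to 147 CPM against 207 to 487 CPM, with 9 of 12 at that level and higher in IL-4Rα-/-. Basophil, mast cell and eosinophil markers summed to 23.7 to 44.6 CPM against 57.6 to 92.9 CPM, with 8 of 12. The summed neutrophil markers overlapped, at 379 to 714 CPM against 485 to 1145 CPM. Of 13 tested, 12 were higher in IL-4Rα-/-, 5 of them at an unadjusted p under 0.05 by edgeR, against 3.72% of all genes. Their sum was highest in IL-4Rα-/- replicate 2. In that library Cd14, Tlr2, Tlr4 and Tlr6 were highest too, as were the summed general monocyte and Ly6C-high markers. The summed B cell markers also overlapped, at 144 to 252 CPM against 208 to 322 CPM. Of the 12, 11 were higher in IL-4Rα-/-, 1 of them at an unadjusted p under 0.05 by edgeR. Plasmacytoid dendritic cell markers, whose cells are rich in Tlr7 and Tlr9, overlapped at 643 to 796 CPM against 670 to 796 CPM. Irf7, 1 of these markers, was at 377 to 467 CPM over all libraries, so the sum leaned on this gene. Siglech, the defining one, was at 1.296 to 3.55 CPM over all libraries. Conventional dendritic cell markers (1614 to 1949 against 1541 to 1913 CPM) and T and NK cell markers (52.5 to 140 against 49.5 to 130 CPM) overlapped. The part of these cells in the members' values was not tested.

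The rest of the pathway was read from 88 genes, listed by role, of which 82 passed the filter on low counts. By edgeR 0 of 82 had an adjusted p under 0.15. At an unadjusted p under 0.05 there were 7, or 8.54%, beside 8.09% of all genes. Of these 7, 1 was higher and 6 lower in IL-4Rα-/-, beside 3.72% and 4.37% of all genes. Each of the 7 had an adjusted p of 0.618 by edgeR. The lists below split these 7 and are to be read beside the same shares of all genes. With library size alone as the scaling, 2 of 82 were at that unadjusted level, beside 1114 of 13849 genes in all. With the replicate number as a block there were 3 of 82, beside 765 of 13849. Without the 2 libraries rich in Ly6C-high genes there were 15 of 82, beside 1504 of 14067 (10.7%). The genotypes did not overlap for 8 of the 82, beside 15.5% of all genes.

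Accessory and trafficking proteins gave 0 of 11 at that level. Unc93b1, the chaperone of the endosomal receptors, had 804, 862 and 829 CPM in IL-4Rα+/+ and 747, 875 and 730 CPM in IL-4Rα-/-. Hsp90b1, the endoplasmic reticulum chaperone gp96 that folds the receptors, had 668, 659 and 870 CPM against 811, 942 and 632 CPM. Both overlapped between the genotypes. Of the endosomal proteases that cut the receptors into their active form, 0 of 5 passed, with Ctsb at 2560 to 3867 CPM and Ctss at 2235 to 2705 CPM over all libraries.

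Among the adaptors 1 of 6 passed. Ticam2, the bridging adaptor that takes Tlr4 signals to Ticam1, had 78.6, 68.4 and 73.7 CPM in IL-4Rα+/+ and 65.9, 56.5 and 65.0 CPM in IL-4Rα-/-, with a log2 fold change of -0.24. Every IL-4Rα-/- library was below every IL-4Rα+/+ library. Myd88 had 203, 235 and 314 CPM against 236, 417 and 251 CPM, and its genotypes overlapped.

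Kinases and ubiquitin ligases gave 3 of 18, all lower in IL-4Rα-/-. Tab2, which tethers the kinase Tak1 to ubiquitin chains, had a log2 fold change of -0.26, Chuk, the kinase IKKα, one of -0.25, and Peli1, a ubiquitin ligase acting on Irak proteins, one of -0.23. Of the transcription factors 1 of 12 passed, Rel, the NF-κB subunit c-Rel, with 246, 204 and 150 CPM against 156, 111 and 149 CPM and a log2 fold change of -0.53. Of the inhibitors 1 of 15 passed, Cyld, which removes ubiquitin chains from the pathway, at -0.21; its unadjusted p was 0.020 and became 0.105 once the trend of counts with gene length was removed (edgeR, not adjusted over genes).

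Of the cytokines and other targets 1 of 15 tested passed. Il18, a cytokine activated by inflammasomes, had 41.7, 51.1 and 49.2 CPM in IL-4Rα+/+ and 71.3, 66.2 and 57.4 CPM in IL-4Rα-/-, with a log2 fold change of 0.46 (adjusted p = 0.618 by edgeR). All IL-4Rα-/- libraries were above all IL-4Rα+/+ libraries.

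**Figure D5:**
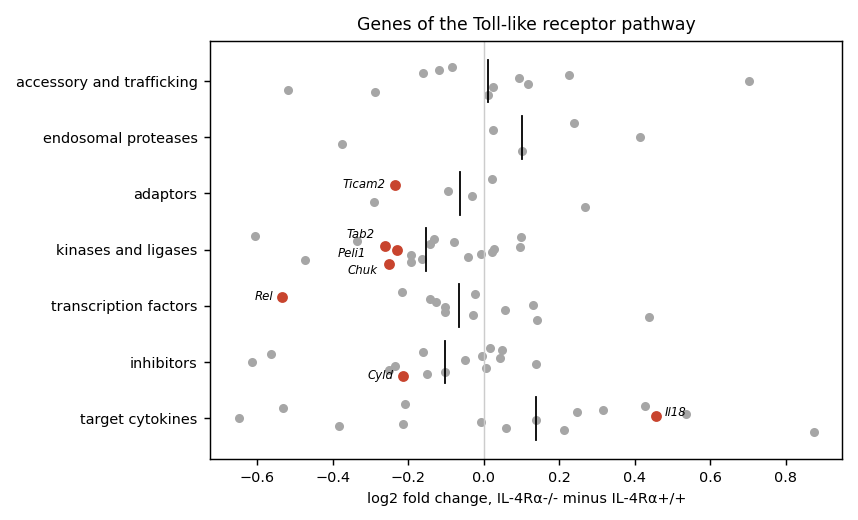
Log2 fold change of IL-4Rα-/- minus IL-4Rα+/+ for the tested pathway genes, 1 point per gene and 1 row per list, with the list's median as a black bar and genes at an unadjusted p under 0.05 named in red (n = 3 per genotype). Il18 at 0.46 is the named gene at right, and the other 6, from Rel at -0.53 to Cyld at -0.21, are at left.

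The genes themselves share a simple structure. The coding sequence lay in 1 segment in 3 members, Tlr1, Tlr2 and Tlr6, and in 2 segments in 6, and only Tlr4 had more. Among 12024 protein-coding genes tested, 10.3% had 1 or 2 coding segments. No member overlapped another annotated gene, so reads of an overlapping gene do not enter their counts.

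For each member the gene whose log2 CPM ran most closely with it over the 6 libraries was found, as a description without a test. These were Pskh1 for Tlr1 (Pearson r = 0.977), Slc35d2 for Tlr2 (0.994), Cdc34 for Tlr4 (0.991), Tmed10 for Tlr5 (0.999) and Shcbp1l for Tlr6 (0.998). They were Nsun6 for Tlr7 (0.992), Kat2a for Tlr8 (0.997), Insr for Tlr9 (0.993), Cyb5b for Tlr13 (0.998) and Dap3 for Cd14 (0.996). The points share 6 libraries, each r is the highest of 13849 genes, and no member was the closest gene of another.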

How the data were processed

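Poly(A) RNA of splenic monocytes was sequenced as single-end 75-base reads. Per the study's methods and the submitters' processing notes, the authors aligned reads with STAR 2.6.1a to GRCm38 and deposited raw counts per gene, 1 file per library; the notes also name bcl2fastq 2.19.1.403, RSEM and DESeq2 1.22.2, and the strand column is not given in the sources used here. STAR's 4 summary lines for unplaced reads (21.1 to 22.8% of reads) were left out. Symbols and exon lengths came from Gencode M21, in which 55240 of 55421 identifiers were found.

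Genes were kept by filterByExpr (minimum count 10; 13849 genes), scaled by TMM and tested with edgeR 4.0.16 in R 4.3.3 by the quasi-likelihood test (adjusted by Benjamini-Hochberg), at the study's threshold of 0.15. Alternatives were DESeq2 1.42.0, other scalings and filters, the replicate block, Xist or the Ly6C index as covariates, removal of the length trend (loess, span 0.5) and leaving out libraries. The fits were run on simulated data with 4-fold changes planted in 200 genes. The largest fold among the members was 1.53, for Cd14. That run therefore does not show how well changes of the members' size are found. Intervals are at 95%. The members and gene lists were chosen with earlier results of these data known. Besides the members, named genes were the other 3 receptors, list genes at an unadjusted p under 0.05 (in lists with none, the 2 with the highest CPM), the first of the 2 genes most like each member, Il4ra and sex genes. Ly96, Myd88, Vcan, Ace, Siglech and Irf7 were added after their values were seen. Protein features of the members were not analysed here.

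Mice are the replicates. Same-numbered libraries of the genotypes correlated at 0.185, -0.271 and -0.296 in their deviations from the group means. These values gave no steady sign of pairing by number. They cannot exclude it, because differences in sex and subset markers among the mice also enter them.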

Additional observations from a re-analysis of the deposited data

How the results depend on the processing

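No alternative brought a member or a pathway gene to an adjusted p under 0.15. Over all genes DESeq2 called 80, and edgeR without IL-4Rα+/+ replicate 3 and IL-4Rα-/- replicate 2 called 1, Il4ra. Leaving out 1 library moved the genes at an unadjusted p under 0.05 between 627 and 1724. Members at that level numbered 0 in the test reported, 1 without a filter, 2 with the Ly6C index, 1 without both libraries, and 0 to 2 without 1 library. Pathway genes numbered 7, but 2 with library size only, 12 with the Ly6C index and 15 without both libraries. They numbered 2 to 14 without 1 library, highest without IL-4Rα+/+ replicate 3. The share of all genes at that level was 8.09% in the test reported. It was 11.8% with the Ly6C index, 10.7% without both libraries and 12.1% without IL-4Rα+/+ replicate 3. With the replicate number as a block, pathway genes numbered 3, and 0 members and 765 genes in all passed, none of them called. The labels do not say whether the numbers pair the mice. The share of Tlr7 and Tlr13 was 54.4 to 56.7% without 1 library. Of 432 log2 fold changes of named genes under the alternatives, 22 changed sign. No gene was called in the test reported, so no called gene could change sign. Without 1 library or both, Tlr1 ran from -0.19 to 0.071, Tlr5 from -0.59 to 0.42 (highest without IL-4Rα+/+ replicate 3), Tlr6 from -0.18 to 0.094, Tlr8 from -0.22 to 0.086, Tlr12 from -0.55 to 0.0090, Hsp90b1 from -0.022 to 0.26, Ctsb from -0.039 to 0.28, Ctss from -0.067 to 0.080 and Myd88 from -0.040 (without IL-4Rα-/- replicate 2) to 0.46. Tlr6 was 0.0025 with library size only, Tlr12 0.087 and Ctss -0.036 with the Ly6C index, and Ctss -0.074 with the length trend removed. The cause was not tested. The fits with the Ly6C index and without both libraries, and the endosomal share with the longest transcript, were chosen after seeing the data. With 3 mice per genotype, the intervals of Tlr5 and Cd14 were the widest among the members.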
